A study of Mus musculus with 6 samples.

Results

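The 33 genes described here encode the enzymes and regulators of cholesterol and fatty acid synthesis, and they were taken by symbol from a table of normalized read counts that holds 17987 genes. All 33 had a row in the table and all 33 passed the filter on low values. They comprise 15 enzymes of the sterol branch, 12 enzymes of the fatty acid branch and 6 proteins that sense or carry sterols. Expression was measured by RNA sequencing of lung tumors from 3 Usp24 WT mice and 3 Usp24 C1695A mice, in which the catalytic cysteine of the deubiquitinase Usp24 is replaced by alanine. The Usp24 allele was made by CRISPR/Cas9 on a C57BL/6J background, and both genotypes carry EGFR L858R together with Scgb1a1-rtTA. All 6 mice received doxycycline (0.5 g/l) for 10 weeks, so no tumor-free lung is among these samples. The Scgb1a1 promoter is that of a club cell gene, which sets the cells in which rtTA can switch on the mutant receptor. The growth protocol is worded alike for the 6 mice and names the C1695A allele, so the genotype was read from the genotype label. The age of the mice when doxycycline began is not stated in the labels. The WT mice are named M1354, M1364 and M1370 and the C1695A mice M134, M145 and M164, after the numbers in their labels.

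Cholesterol and fatty acids are both built from acetyl-CoA in the cytosol. The sterol branch runs through mevalonate and farnesyl diphosphate to squalene, lanosterol and cholesterol, while the fatty acid branch goes through malonyl-CoA to palmitate, which elongases lengthen and desaturases render unsaturated. Both branches are switched on by the SREBP transcription factors, which Scap escorts out of the endoplasmic reticulum when sterols are low and which the Insig proteins hold back when sterols are high. In the lung, alveolar type 2 cells use these pathways to make the lipids of surfactant, and in fat cells the fatty acid branch supplies stored triglyceride.

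The libraries held 7167000 to 14650273 reads assigned to genes, and the shallowest was M164. Mitochondrial genes took 1.74% to 3.10% of the reads in 5 libraries and 17.2% in M164. The alveolar type 2 marker Sftpc, a surfactant protein, lay between 67192 and 291169 normalized counts in the 6 mice. All 11 alveolar type 2 markers had a negative difference (C1695A minus WT), and their summed value was 660083 to 799860 in WT mice and 210522 to 627260 in C1695A mice. Of 15 fat cell markers listed, 14 were in the table, and the 8 that passed the filter all had a positive difference, with a summed value of 1913 to 1981 in WT mice, 2344 in M134, 11984 in M145 and 189141 in M164. Adipoq, which fat cells secrete, was at 0 in M1364 and M1370, at 1.04 in M1354 and at 2.03, 278 and 5589 in M134, M145 and M164. The 8 heart muscle, 7 B cell, 7 T cell and 4 club cell markers tested also all had positive differences. Of 8 alveolar macrophage markers tested, 7 had a negative difference and 1 a positive one. The mean log2 level of the B cell markers was 4.96 to 5.34 in WT mice. It was 4.80 in M134, 10.29 in M145 and 8.94 in M164. The Y-linked gene Kdm5d was at 0 in M1364 and M1370 and between 582 and 609 in the other 4 mice, so presence of the Y chromosome was uneven among WT mice. In tumor pieces of this kind, fewer cells of a type and less RNA per cell cannot be told apart.

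The promoters of 5 members are shown because their genes had the lowest p within the sterol branch and its sensors (Cyp51, Dhcr7, Srebf1 and Insig1) or hold the core of the sterol response element (Hmgcs1). Each line is the 150 bases that end just before the annotated start, 5′ to 3′, from RefSeq on GRCm38.p6, which is not the mm39 build of the reads. Capitals mark CCAAT, read on either strand (ATTGG on the other), and the sterol response element core TCACNCCAC.
Hmgcs1 (chr13:119690201-119690350, plus strand): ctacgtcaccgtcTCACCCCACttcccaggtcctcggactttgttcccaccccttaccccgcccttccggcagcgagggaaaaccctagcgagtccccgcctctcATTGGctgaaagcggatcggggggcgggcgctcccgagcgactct
Cyp51 (chr5:4104698-4104847, minus strand): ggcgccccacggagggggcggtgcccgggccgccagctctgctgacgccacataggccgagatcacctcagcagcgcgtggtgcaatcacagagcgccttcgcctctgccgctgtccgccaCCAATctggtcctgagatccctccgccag
Dhcr7 (chr7:143830064-143830213, plus strand): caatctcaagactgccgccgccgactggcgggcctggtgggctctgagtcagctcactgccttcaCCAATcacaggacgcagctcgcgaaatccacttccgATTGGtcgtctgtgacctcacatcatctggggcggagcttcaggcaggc
Srebf1 (chr11:60210472-60210621, minus strand): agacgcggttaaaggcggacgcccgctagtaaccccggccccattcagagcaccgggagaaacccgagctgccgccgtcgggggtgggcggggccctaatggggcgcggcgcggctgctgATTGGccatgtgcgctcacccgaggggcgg
Insig1 (chr5:28071262-28071411, plus strand): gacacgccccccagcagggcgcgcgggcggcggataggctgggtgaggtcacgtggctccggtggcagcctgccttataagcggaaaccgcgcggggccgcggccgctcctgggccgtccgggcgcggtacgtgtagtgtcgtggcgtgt

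Of the 33 members, 26 had a RefSeq promoter entry, with 36 windows in all, and these were searched on both strands. The sterol response element core TCACNCCAC was in 1 of the 36 windows, that of Hmgcs1 at position −137, against 1.24% of all 32851 windows of the same length. The core preceded by A was in none of the 36 windows and in 0.234% of all. CCAAT, the word read by the factor NF-Y, was in 23 of the 36 windows (63.9%) against 37.4% of all windows, and 22 of the 26 genes had it in at least 1 window. The GC box GGGCGG was in 72.2% of the members' windows against 35.7% of all, and the E box CACGTG in 16.7% against 7.15%. In the stretches above, CCAAT stands at −45 in Hmgcs1, −29 in Cyp51, −85 and −49 in Dhcr7 and −30 in Srebf1. The Insig1 match is at −216, outside the printed stretch, and its E box is at −101. Dhcr7 and Srebf1 have further annotated starts, whose windows hold CCAAT in Srebf1 at −166 and not in Dhcr7. These words are matches of letters and were not tested as binding sites.

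The lipid synthesis genes showed no difference between genotypes that passed the test, and 25 of the 33 had a negative difference. Their median log2 difference was −0.21, beside −0.017 over the 16640 genes tested. With limma-trend on log2(normalized count + 1), a two-sided test with Benjamini-Hochberg adjustment over all genes, no member was called (lowest adjusted p = 0.738), and 0% of all genes were called. edgeR called 0 members and 0% of all genes, and DESeq2 called 0 members and 0.221% of 16254 genes. At an unadjusted limma p under 0.05, Cyp51, Dhcr7 and Elovl1 were lower in C1695A tumors (3 of 33, where 2.93% of all genes were lower) and no member was higher (2.61% of all genes). At the same threshold edgeR had 1 member lower (Cyp51, where 2.22% of all genes were lower) and 3 higher (Insig1, Acss2 and Elovl6, where 4.66% were higher). DESeq2 had 2 members lower (Cyp51 and Scd1, where 2.78% were lower) and the same 3 higher (5.47% of all genes). The 3 mice of each genotype did not overlap for Cyp51, Dhcr7, Srebf1 and Scd1, all lower in C1695A tumors (4 of 33, where 6.03% of all genes lay this way), and no member lay wholly higher (5.07% of all genes). The count of members lower at an unadjusted limma p under 0.05 was 8 without M1364, where 7.14% of all genes were lower, 4 without M134 (6.02%) and 3 without M145 (3.2%). It was 0 without M1354, M1370 or M164 (1.47%, 0.565% and 1.92% of all genes). In the same fits 2 members were higher without M134 (5.67% of all genes), 1 without M145 (3.09%) and 0 in the other 4. Without M145 and M164, the mice with the fat cell markers, 16 of 33 members were lower in the remaining C1695A mouse.

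**Figure D1:**
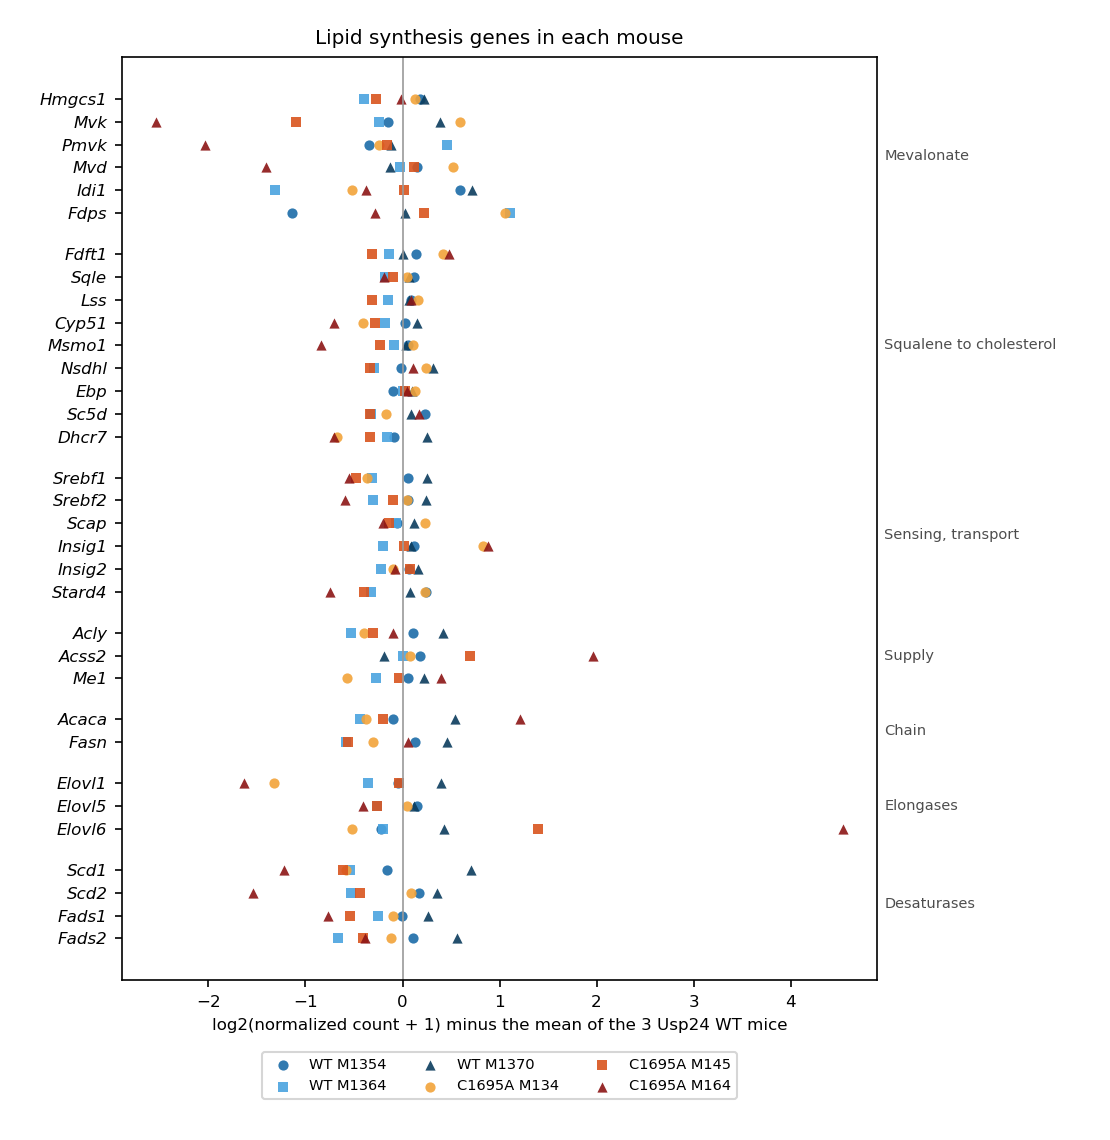
Each of the 33 genes in each mouse, as log2(normalized count + 1) minus the mean of the 3 WT mice (x axis), grouped by role; blue symbols are WT mice and orange to red symbols are C1695A mice. M164 lies farthest left for Mvk and Pmvk and farthest right for Elovl6, while most sterol enzymes stay within 1 log2 unit of the WT mean.

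**Figure D2:**
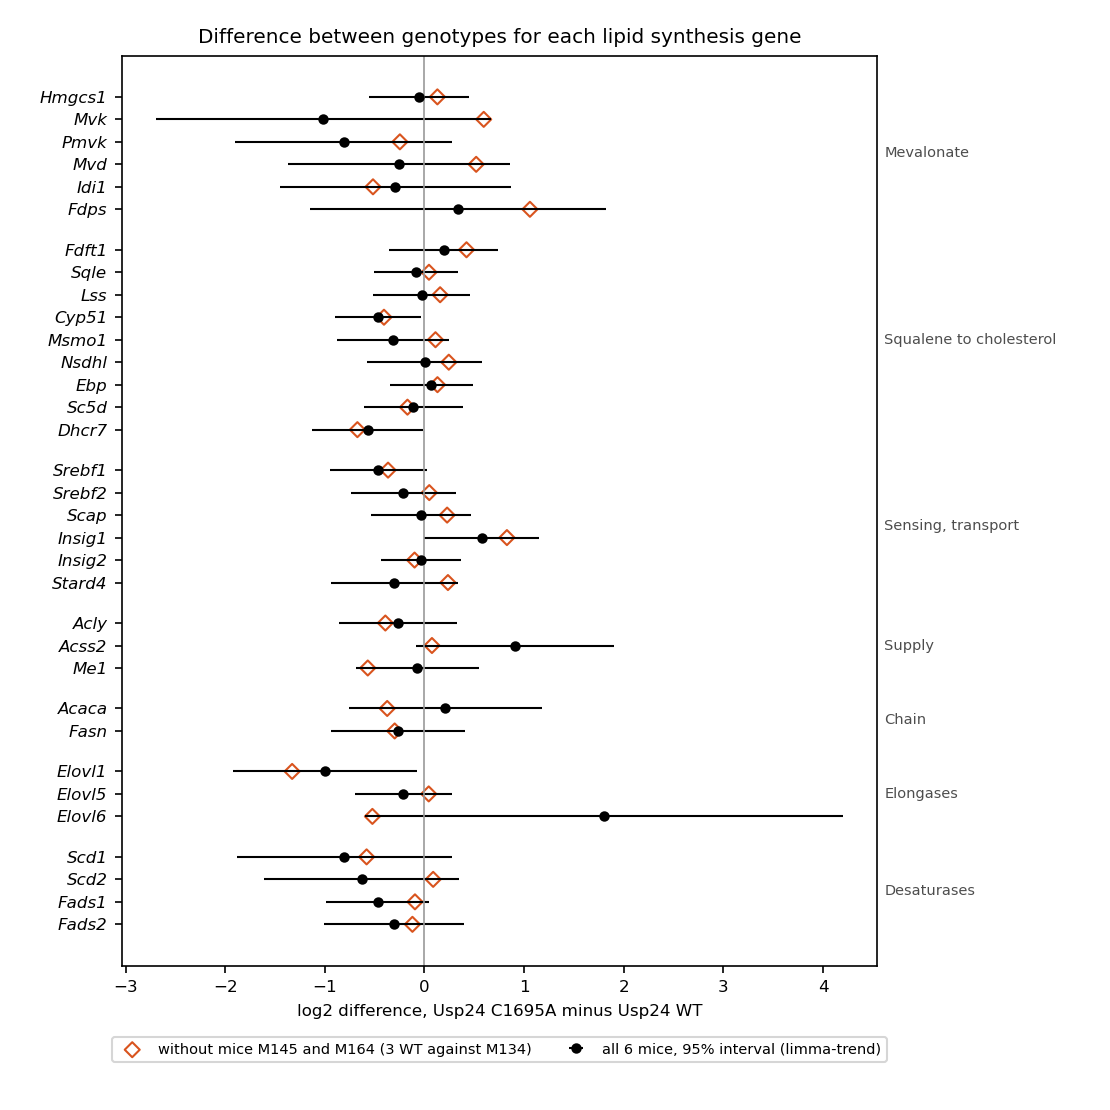
Log2 difference (C1695A minus WT) of each gene with its 95% interval from limma-trend (black), and the difference without M145 and M164 (open diamonds), by role. The intervals of Cyp51, Dhcr7 and Elovl1 lie below 0, and the diamond changes side for Mvk, Mvd, Stard4, Elovl6 and Scd2 among others.

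Levels within the group spanned a wide range once divided by exon length. Scd1, which makes monounsaturated fatty acids, stood first with a median over the 6 mice of 21911 normalized counts per kb of exon, and Scd2, its paralog, followed at 2838. Elovl1 (2275), Elovl5 (1780), Me1 (1234) and Acly (754) came next, so the 6 highest medians per kb all belonged to the fatty acid branch. The highest medians per kb in the sterol branch were those of Pmvk (610) and Hmgcs1 (522). Fdps, which makes farnesyl diphosphate, was last at 5.05 per kb and Mvk, mevalonate kinase, next to last at 12.8. Scd1 exceeded Scd2 in every mouse, whereas the neighbours Scd2, Elovl1 and Elovl5 overlapped over the 6 mice. Of the 75-base stretches of Fdps exons, 23.5% also occur in another annotated gene. The share was 26.8% for Acaca, 23.6% for Idi1, 21.8% for Fdft1 and 20.0% for Me1. The counts of these 5 genes are therefore uncertain, by an amount that these shares do not measure.

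**Figure D3:**
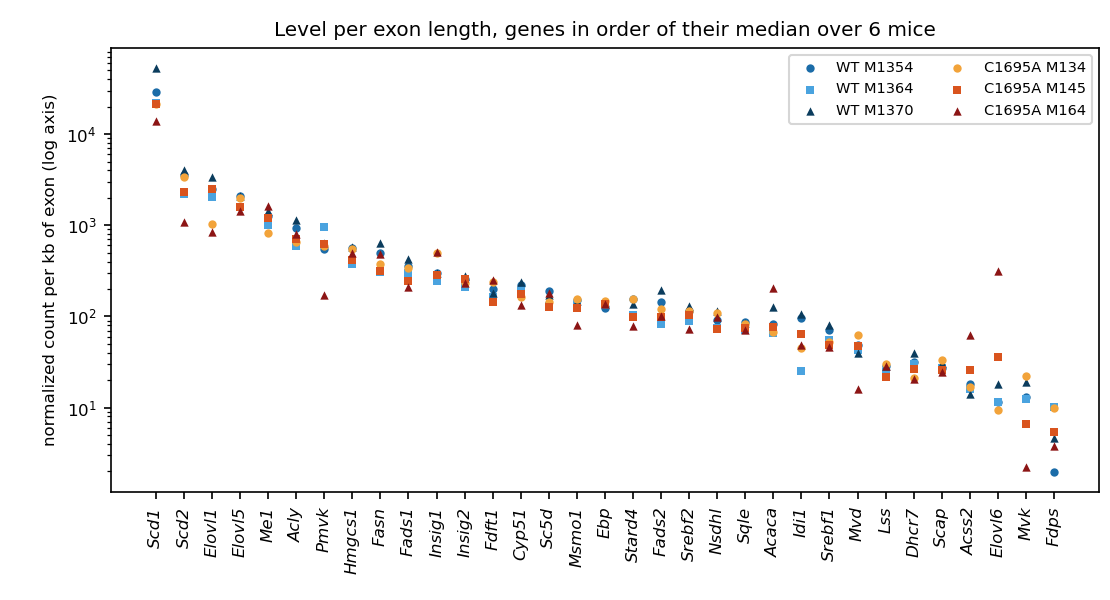
Normalized counts per kb of exon (log axis) for the 33 genes, ordered by the median over 6 mice, with 1 symbol per mouse. Scd1 stands apart at the left with a median of 21911, and Mvk and Fdps close the order at 12.8 and 5.05.

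Among the 6 mevalonate enzymes, which carry acetoacetyl-CoA to farnesyl diphosphate, 1 difference was positive and 5 were negative, and none reached an unadjusted p of 0.05. Hmgcs1, which makes HMG-CoA, counted 2611, 1743 and 2684 in WT mice and 2520, 1911 and 2275 in C1695A mice. All 3 C1695A mice lay within the WT range, and the log2 difference was −0.052 ± 0.22 (SE). Mvk counted 35.3, 33.1 and 51.7 in WT mice and 59.8, 17.8 and 5.94 in C1695A mice. M134 was above and M145 and M164 below every WT mouse, and M164 rested on 3 reads. The log2 difference of Mvk was −1.01 ± 0.73, which turned to 0.59 without M145 and M164. Pmvk, the next kinase, counted 947, 1655 and 1106 in WT mice and 1013, 1076 and 293 in C1695A mice. Only M164 lay below the WT mice, and the difference of −0.81 ± 0.48 became −0.20 without it. Fdps counted 8.31, 43.2 and 19.7 in WT mice and 41.6, 22.8 and 15.8 in C1695A mice, with full overlap and a difference of 0.33 ± 0.65. Mvd and Idi1, which decarboxylate and isomerize the isoprenoid unit, had differences of −0.26 and −0.29, and Idi1 varied 4.14-fold among the WT mice alone.

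The 9 enzymes from squalene to cholesterol held the sterol members with the lowest p. Cyp51 (ENSMUSG00000001467), the lanosterol demethylase, counted 972, 839 and 1060 in WT mice and 719, 783 and 584 in C1695A mice. Every C1695A mouse lay below every WT mouse, although M145 and M1364 were close. The means were 957 ± 111 and 695 ± 101 (SD, n = 3 each), a log2 difference of −0.47 ± 0.19 or 27.6% (adjusted p = 0.738 by limma). Leaving out single mice gave −0.56 to −0.35, and the value was −0.41 without M145 and M164. Dhcr7 (ENSMUSG00000058454), the reductase that completes cholesterol, counted 183, 174 and 231 in WT mice and 122, 154 and 119 in C1695A mice. The genotypes again did not overlap, with M145 nearest to the WT mice. Its difference was −0.57 ± 0.24 or 32.7% (adjusted p = 0.738 by limma), and −0.67 without M145 and M164. With the fat cell markers as a covariate, the differences stayed negative, at −0.28 for Cyp51 and −0.52 for Dhcr7. Neither was then at an unadjusted limma p under 0.05. In that fit 0 of the 33 members were, where 1.77% of all genes were lower and 0.697% higher.

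The other 7 enzymes of this stretch overlapped between genotypes, with differences from −0.32 to 0.19. Fdft1, squalene synthase, counted 836, 692 and 763 in WT mice and 1021, 612 and 1059 in C1695A mice. M134 and M164 were above the WT mice and M145 below them, and the difference was 0.19 ± 0.24. Ebp, the sterol isomerase, varied least of the 33 over the 6 mice, at 288, 309 and 329 in WT mice and 338, 314 and 319 in C1695A mice. Its difference was 0.068 ± 0.18. Sqle, the squalene epoxidase and a rate-limiting step, differed by −0.084 ± 0.18, and Lss, the cyclase that forms lanosterol, by −0.026 ± 0.21. Msmo1, which removes the methyl groups left after Cyp51, differed by −0.32 ± 0.25 and turned to 0.11 without M145 and M164. Nsdhl, its partner in demethylation, and Sc5d, a sterol desaturase, differed by 0.0029 and −0.11.

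Among the sterol sensors and carriers, Srebf1 was lower and Insig1 higher on average in C1695A tumors, while the other 4 differed by −0.30 to −0.034. Srebf1 (ENSMUSG00000020538), which encodes the SREBP of the fatty acid branch, counted 399, 308 and 457 in WT mice and 297, 274 and 261 in C1695A mice. The genotypes did not overlap, and M134 lay just below M1364. The means were 388 ± 75.02 and 277 ± 18.1 (SD, n = 3 each), a log2 difference of −0.47 ± 0.21 (adjusted p = 0.738 by limma). Leaving out single mice gave −0.62 to −0.34. Insig1 (ENSMUSG00000045294), which retains Scap and is itself an SREBP target, counted 935, 753 and 916 in WT mice and 1534, 873 and 1588 in C1695A mice. M134 and M164 were above all WT mice and M145 was within their range. The difference was 0.57 ± 0.25 (adjusted p = 0.738 by limma), and 0.83 without M145 and M164. Insig1 was nearly as high in M134 as in M164. The fat cell markers of M134 were near the WT level, but its heart muscle markers summed to 1158, against 405 to 465 in WT mice. Whether either bears on Insig1 was not tested. Insig2, the second retention protein, counted 897, 734 and 959 in WT mice and 801, 905 and 812 in C1695A mice, all within the WT range. Stard4, which carries cholesterol between membranes, counted 866, 583 and 770 against 860, 553 and 434. M134 was near the top of the WT range and M145 and M164 below it, and the difference of −0.30 ± 0.28 turned to 0.24 without M145 and M164. Srebf2, the SREBP of the sterol branch, differed by −0.21 ± 0.23 and Scap by −0.035 ± 0.22.

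**Figure D4:**
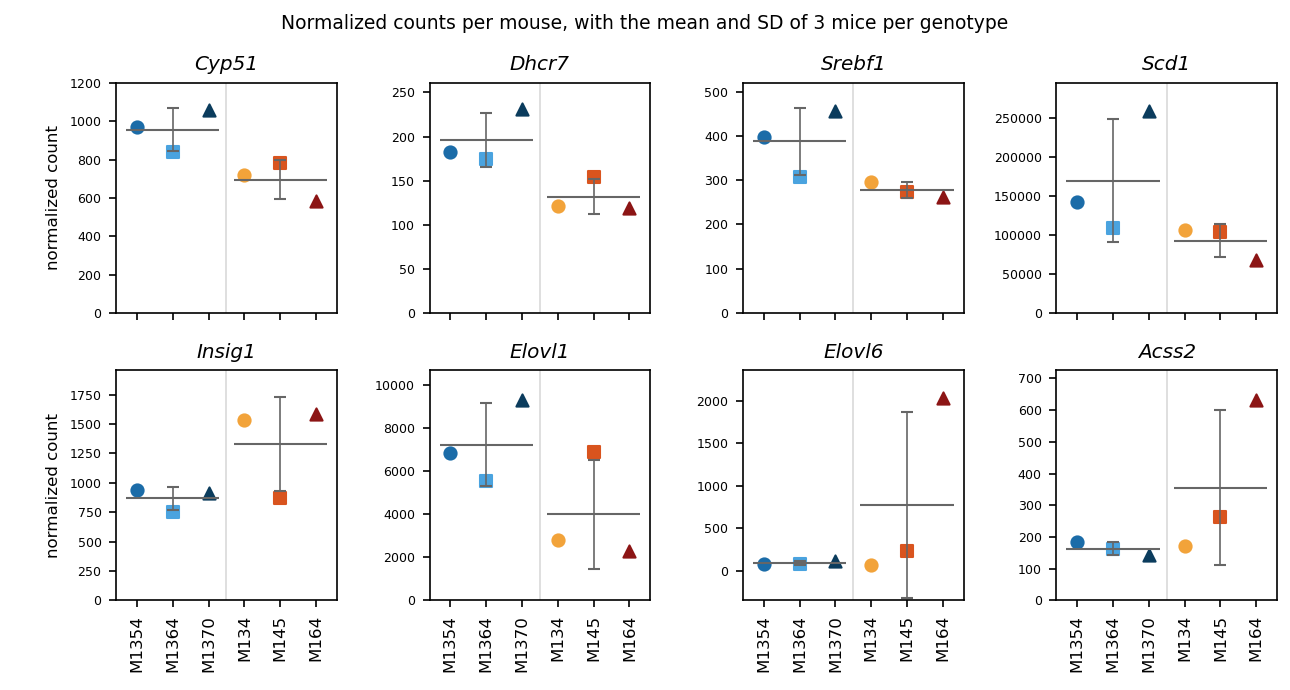
Normalized counts of 8 members in each mouse (symbols), with the mean (line) and SD (bar) of the 3 mice per genotype; each panel has its own y axis. Cyp51, Dhcr7, Srebf1 and Scd1 do not overlap between genotypes, Insig1 is high in M134 and M164, and Elovl6 and Acss2 are highest in M164; the SD bar of Elovl6 reaches below 0 because M164 stands apart.

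Of the 3 enzymes that supply acetyl-CoA and NADPH, Acss2 had the only positive difference. Acss2 (ENSMUSG00000027605), which activates acetate, counted 183, 163 and 142 in WT mice and 170, 262 and 634 in C1695A mice. M134 was within the WT range, M145 above it and M164 far above it. The fat cell markers had the same order in these 3 mice, but whether they bear on Acss2 was not tested. The difference was 0.91 ± 0.43 (adjusted p = 0.738 by limma). It was 0.38 without M164, 0.075 without M145 and M164, and −0.12 with the fat cell markers as a covariate. Acly, which cleaves citrate to acetyl-CoA, counted 4921, 3152 and 6099 in WT mice and 3471, 3697 and 4263 in C1695A mice, all within the WT range. Me1, the malic enzyme that yields NADPH, counted 4901, 3918 and 5489 against 3184, 4594 and 6225. M134 was below and M164 above the WT mice, and the difference was −0.070 ± 0.27. The pair that builds the chain diverged in M164. Acaca, which makes malonyl-CoA, counted 1398, 1110 and 2183 in WT mice and 1159, 1303 and 3477 in C1695A mice. Only M164 was outside the WT range, and the difference of 0.21 ± 0.43 became −0.29 without it. Fasn, the fatty acid synthase, counted 5500, 3349 and 6907 in WT mice and 4088, 3414 and 5239 in C1695A mice. All 3 C1695A mice lay within the WT range, with a difference of −0.27 ± 0.29.

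The elongases, which add carbon units to long-chain acyl-CoA, held both the most negative and the most positive difference of the fatty acid branch. Elovl1 (ENSMUSG00000006390), which lengthens saturated and monounsaturated very long chains, counted 6870, 5533 and 9335 in WT mice and 2819, 6899 and 2279 in C1695A mice. M134 and M164 were far below every WT mouse and M145 was in the middle of the WT range. The difference was −1.0 ± 0.40 (adjusted p = 0.738 by limma). It was −1.48 without M145, −0.68 without M164 and −1.33 without both. Elovl6 (ENSMUSG00000041220), which lengthens palmitate to stearate, counted 73.8, 74.9 and 117 in WT mice and 59.8, 229 and 2025 in C1695A mice. M134 was below the WT mice, M145 above them and M164 above them by the widest margin of any member. The difference was 1.80 ± 1.05 (adjusted p = 0.738 by limma). It was 0.44 without M164, −0.52 without M145 and M164 and −0.84 with the fat cell markers as a covariate. Elovl5, which lengthens polyunsaturated chains, counted 7452, 5595 and 7333 against 6939, 5602 and 5074. M164 alone was below the WT mice, by a small margin, and the difference was −0.21 ± 0.21.

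All 4 desaturases had a negative difference, with a median of −0.55, and none reached an unadjusted limma p of 0.05. Scd1 (ENSMUSG00000037071) counted 141444, 108521 and 258589 in WT mice and 105857, 103372 and 68100 in C1695A mice. The genotypes did not overlap, but M134, M145 and M1364 lay close together and M1370 was far above all. The means were 169518 ± 78874 and 92443 ± 21118 (SD, n = 3 each), a log2 difference of −0.80 ± 0.47 (adjusted p = 0.738 by limma). It was −0.45 without M1370 and −1.08 without M1364, and −0.58 without M145 and M164. Scd1 alone took 1.88% of all reads in M1370 (95% Wilson interval 1.87% to 1.88%), 1.09% and 0.842% in M1354 and M1364, 0.846% and 0.835% in M134 and M145, and 0.480% in M164 (0.475% to 0.485%). These intervals cover counting error only. Set against the mean of the 11 alveolar type 2 markers on the log2 scale, Scd1 stood 2.25, 2.09 and 2.90 above it in WT mice and 2.18, 2.05 and 2.88 in C1695A mice. On that scale the genotypes overlapped, and M1370 and M164 were alike. The difference of Scd1 with the alveolar type 2 marker mean as a covariate was −0.34.

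Scd2 counted 19435, 11960 and 21991 in WT mice and 18299, 12710 and 5930 in C1695A mice. Only M164 was below the WT mice, and the difference of −0.63 ± 0.43 turned to 0.087 without M145 and M164. Of the 75-base stretches of Scd1, 3.15% also occur in other annotated genes, Scd2 foremost, and Scd1 made up 85.3% to 92.2% of their summed counts in the 6 mice. Fads1, a desaturase of polyunsaturated chains, counted 1722, 1452 and 2076 in WT mice and 1621, 1186 and 1014 in C1695A mice. M145 and M164 were below the WT mice, and the difference was −0.47 ± 0.23. Fads2, its partner, counted 470, 273 and 643 against 400, 327 and 333, all within the WT range, with a difference of −0.31 ± 0.31.

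The sterol and fatty acid branches were then contrasted. The 15 sterol enzymes had 11 negative differences and a median of −0.11, and the 12 fatty acid enzymes had 9 and a median of −0.26. The mean log2 level of the sterol enzymes was 8.32, 8.21 and 8.48 in WT mice and 8.43, 8.11 and 7.79 in C1695A mice. M134 was within the WT range and M145 and M164 were below it. The mean log2 level of the fatty acid enzymes was 11.48, 11.06 and 11.81 in WT mice and 11.11, 11.34 and 11.62 in C1695A mice, all within the WT range. Without Elovl6 and Acss2 it was 12.3995, 11.915 and 12.763 in WT mice and 11.996, 12.017 and 11.9204 in C1695A mice. M164 then lay close to M1364, the lowest WT mouse. The sterol minus fatty acid level was −3.16, −2.85 and −3.32 in WT mice and −2.68, −3.23 and −3.83 in C1695A mice. M134 was above and M164 below the WT mice, so the C1695A mice lay on both sides of them. The place of M164 depended on Elovl6 and Acss2. Against the fatty acid mean without these genes, M134 stayed above the WT mice but M164 was no longer below M1370. With all 12 fatty acid enzymes, the means were −3.11 ± 0.24 and −3.25 ± 0.58 (SD, n = 3 each), and the difference of −0.14 was smaller than either SD. It became 0.43 without M145 and M164, and no test was made on these means because the genes were chosen with results known.

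**Figure D5:**
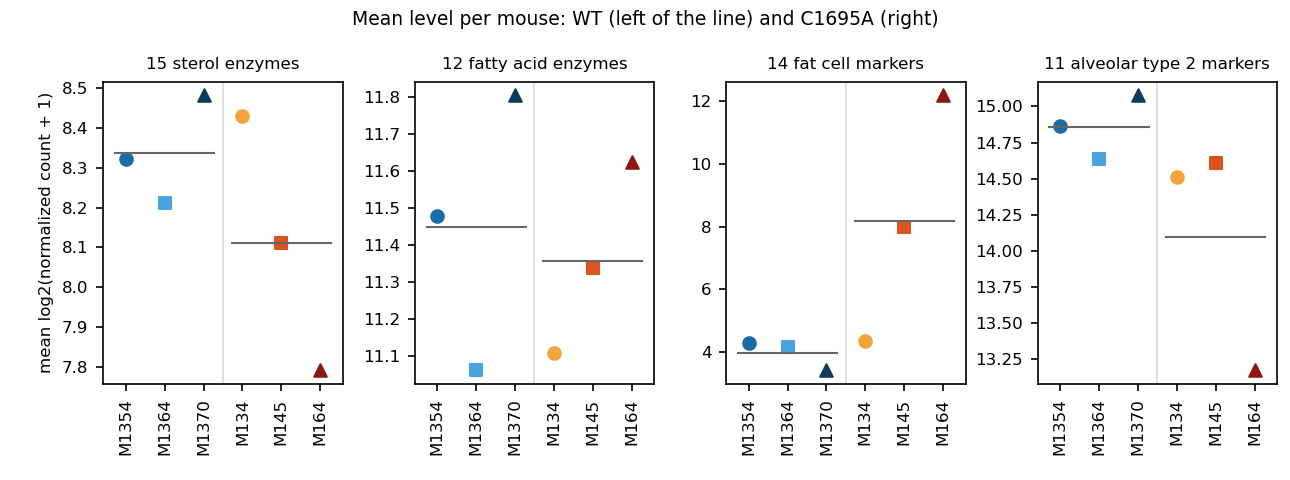
Mean log2(normalized count + 1) per mouse over the 15 sterol enzymes, 12 fatty acid enzymes, 14 fat cell markers and 11 alveolar type 2 markers, with lines for the mean of 3 mice; each panel has its own y axis, which does not start at 0. Fat cell markers run from 4.35 to 12.18 in the C1695A mice, and M164 has the lowest sterol enzyme and alveolar type 2 marker means.

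The 3 C1695A mice differed in which members left the WT range. In M134, 6 of the 15 sterol enzymes were above every WT mouse, 7 within and 2 below, while none of the 12 fatty acid enzymes was above and 4 were below. In M145, none of the sterol enzymes was above and 8 were below, with 2 fatty acid enzymes above and 2 below. In M164, 1 sterol enzyme was above and 7 below, and 4 fatty acid enzymes were above and 5 below. Over all genes tested, 23.0%, 20.6% and 33.5% were above and 22.6%, 25.1% and 35.6% below the WT mice in M134, M145 and M164. The WT mice differed too. M1364 was the lowest of the 3 for 27 of the 33 members, where it was the lowest for 41.2% of all genes. M1370 was the highest for 21 members, for which no share over all genes was counted. M1364 and M1370, which were thus mostly at opposite ends of the WT mice, are the 2 mice with Kdm5d at 0. Kdm5d was present in M1354 and in all 3 C1695A mice, so genotype and presence of the Y chromosome cannot be fully told apart.

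Other genes of these pathways, listed beside the 33 members, gave no call by limma-trend either. Of 18 further sterol pathway genes 15 were tested, with 13 negative differences and a median of −0.32. At an unadjusted limma p under 0.05, 2 were lower and 1 higher, where 2.93% of all genes were lower and 2.61% higher. The genotypes did not overlap for 2 lower and 1 higher, where 6.03% and 5.07% of all genes lay this way. Erlin1, a membrane protein of the endoplasmic reticulum, had the lowest p of the list. It counted 814, 793 and 1094 in WT mice and 559, 500 and 404 in C1695A mice, without overlap, a difference of −0.88 ± 0.21. Mylip, the ligase that degrades the LDL receptor, counted 412, 281 and 364 against 602, 599 and 1063, with every C1695A mouse above the WT mice and a difference of 1.06 ± 0.27. Hsd17b7 and Mbtps2 differed by −0.71 and −0.32.

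Of 29 further fatty acid synthesis genes 24 were tested, with 15 positive differences and a median of 0.095. At an unadjusted limma p under 0.05, Mlxipl, the carbohydrate-responsive factor ChREBP, was higher (2.76) and Acsl4, an acyl-CoA synthetase, lower (−0.97). This was 1 of 24 each way, where 2.61% of all genes were higher and 2.93% lower. Mlxipl counted 13.5, 15.8 and 5.64 in WT mice and 19.3, 34.6 and 703 in C1695A mice, so most of its difference lay in M164. Thrsp, a lipogenic protein, counted 23.9, 38.9 and 25.4 in WT mice and 16.2, 168 and 1356 in C1695A mice, with M134 below and M145 and M164 above the WT mice. Its difference of 2.41 ranged from 0.86 to 4.01 without single mice and turned to −0.79 without M145 and M164 and to −0.93 with the fat cell markers as a covariate, which also turned Mlxipl to −0.078. Scd4 differed by 1.055. Of 11 efflux and oxysterol genes tested 7 were negative, with a median of −0.29. The genotypes did not overlap for 2 lower and 1 higher, where 6.03% and 5.07% of all genes lay this way. Ch25h, which makes an oxysterol that holds SREBP back, counted 237, 451 and 361 in WT mice and 76.0, 223 and 41.6 in C1695A mice, all below the WT mice, a difference of −1.91 ± 0.56. Soat1, which esterifies cholesterol, also lay below the WT mice in every C1695A mouse (−1.02), and Cyp27a1, another oxysterol enzyme, above them (1.001). Lpcat3 differed by −0.57.

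Fatty acid oxidation genes ran the other way in M164. Of 19 tested, 18 had a positive difference, with a median of 0.57, and none reached an unadjusted limma p of 0.05. Above the WT range were 18 in M164, 2 in M145 and 8 in M134. Of all genes tested, 33.5%, 20.6% and 23.0% were above it in M164, M145 and M134. Etfb, Acadm, Ehhadh and Acaa2, which had the lowest p, differed by 0.69, 1.103, 0.71 and 0.68. Of 11 triglyceride synthesis genes tested, 8 were positive and the median was 0.12. Dgat2, which adds the last acyl chain, counted 25.97, 11.5 and 27.3 in WT mice and 44.6, 52.4 and 822 in C1695A mice (2.57 ± 1.015), and Gpam, Lpin1 and Gpat3 differed by 0.82, 0.65 and 1.25. With the fat cell markers as a covariate, Acadm turned to −0.27, Ehhadh to −0.044 and Gpat3 to −0.025. Ucp1, which marks brown fat cells, was at 0 to 2.08 in WT mice and at 4.05, 23.7 and 4774 in M134, M145 and M164. Myl1, the only 1 of 8 listed skeletal muscle genes in the table, did not pass the filter. It was at 1.44 to 4.16 in WT mice and at 5.07, 7.91 and 6767 in these 3 mice. The summed value of the 8 heart muscle markers was 405 to 465 in WT mice and 1158, 717 and 6439 in M134, M145 and M164. The part of these markers and of the mitochondrial share of M164 in these list counts was not tested.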

How the data were processed

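Total RNA of lung tumors (3 μg per library) was sequenced as 150-bp pairs on an Illumina NovaSeq instrument. Per the submitters' processing notes, HISAT2 2.1.0 and mm39 were used, while the counter and annotation are not given in the sources used here. The deposited signal is a table of gene counts that the authors divided by 1 size factor per library, and all 107922 values were whole multiples of 1 step per library (tolerance 1e-06 reads), which returned the reads. For M145 the step was 0.989, so near to 1 that this rests on the residuals. Genes with at least 10 normalized counts in 3 or more of the 6 mice (16640 of 17987) were tested with limma-trend (limma 3.58.1, R 4.3.3) on log2(value + 1), which understates changes of low genes. edgeR 4.0.16 and DESeq2 1.42.0 on the recovered reads were alternatives. The limma test was also run on simulated data without an outlying library such as M164, and no result here rests on that run.

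All 33 members were reported, with values per mouse for those at an unadjusted p under 0.05, those without overlap and the 2 highest and 2 lowest differences of each role. Of other lists, up to 4 genes of lowest p were named, and Elovl3 was added after its values were seen. Members and lists were chosen with earlier results of these data known. Exon lengths and shared stretches came from GENCODE M21 (GRCm38), and the only coordinates printed are those of the promoter stretches, on GRCm38.p6, because the reads were aligned to another build. Nothing in the labels says how many tumors each library holds. The limma SE and p-values rest on the spread between these mice, with the variance of each gene drawn toward a trend over all genes.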

Additional observations from a re-analysis of the deposited data

How the results depend on the processing

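No paired analysis was possible because the mouse numbers are not shared between the genotypes. No member was called under any alternative. Among all genes, DESeq2 called 36, and leaving out single mice gave 0 to 40 calls (5 without M1354 and 40 without M134). The sterol enzyme median of −0.11 became 0.10 with the fat cell marker mean as a covariate and 0.13 without M145 and M164. It was −0.34 with a Y-linked covariate and −0.34 without M1364 and M1370. Both values of −0.34 rest on nearly the same contrast, of M1354 with the C1695A mice, because Y-linked genes were at 0 in M1364 and M1370. Without single mice the sterol enzyme median was −0.27 to −0.026. The fatty acid enzyme median of −0.26 was −0.54 to −0.045 without single mice. The sterol minus fatty acid difference of −0.14 became 0.46 with the fat cell covariate and 0.43 without M145 and M164, and was −0.42 to 0.16 without single mice. There were 948 values over 53 named genes under the alternatives. Of these, 28, in 13 genes at least 1 SE from 0, changed sign. Among genes within 1 SE of 0, 19 values moved beyond the spread between mice. The other 901 kept their sign or, for genes within 1 SE of 0, stayed within that spread. A value that kept its sign could still change much in size. The fat cell covariate turned Mvk to 0.68, Pmvk to 0.15, Msmo1 to 0.19, Stard4 to 0.22, Acss2 to −0.12, Elovl6 to −0.84, Scd2 to 0.27, Mlxipl to −0.078, Thrsp to −0.93, Acadm to −0.27, Ehhadh to −0.044 and Gpat3 to −0.025. Leaving out M145 and M164 turned Mvk to 0.59, Msmo1 to 0.11, Stard4 to 0.24, Elovl6 to −0.52, Scd2 to 0.087 and Thrsp to −0.79. An alveolar type 2 marker covariate, chosen after seeing the data as was leaving out M1364 and M1370, turned Mvk to 0.18, Pmvk to 0.051, Msmo1 to 0.083, Stard4 to 0.067, Elovl6 to −0.16, Scd2 to 0.16, Acadm to −0.13, Acaa2 to −0.022 and Gpat3 to −0.032. Array weights turned Acaa2 to −0.062 and put 13 members lower and 2 higher at an unadjusted limma p under 0.05, where 13.9% of all genes were lower and 11.5% higher, against 3 and 0 members and 2.93% and 2.61% of all genes without weights. In all these cases the cause was not tested. Members within 1 SE of 0 were judged by movement and not by sign. The depth of 7167000 reads in M164 limits genes such as Mvk, at 3 reads there.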

Other observations

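Differences between 2 members within a mouse do not depend on the scaling of the library. Insig1 minus Srebf2, on the log2(normalized count + 1) scale, was 0.19, 0.23 and −0.032 in M1354, M1364 and M1370, and 0.91, 0.24 and 1.60 in M134, M145 and M164. The C1695A mice were all above the WT mice, M145 by a very small margin. Elovl6 minus Elovl1 was −6.52, −6.19 and −6.31 in the WT mice and −5.54, −4.91 and −0.17 in the C1695A mice. These 2 pairs were chosen after their values were seen, so no test was made. Elovl3, an elongase of fat cells that did not pass the filter, was at 0 in the 3 WT mice and M134, at 8.90 in M145 and at 87.1 in M164.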
